A study of Homo sapiens with 4 samples.

Results

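Genes that take up, store, export and sense cellular iron, together with the gene of the siderophore-binding protein LCN2, were followed in human endometrial cancer cells. The cells had been given a mimic of tRF-20-S998LO9D, a fragment of a transfer RNA. The set held 9 genes of the 22494 features in the deposited tables. They were FTH1, FTL, TFRC, SLC11A2, STEAP3, SLC40A1, IREB2, ACO1 and LCN2, each found by its symbol. The set was chosen by role, with the levels in each line and the mimic-over-control ratios of these genes known, so those values are given as a description, with no test. The 4 groups were HEC-1-A cells transfected with the mimic, HEC-1-A cells transfected with its negative control, RL-95-2 cells with the mimic and RL-95-2 cells with the negative control. Both are established human lines derived from carcinomas of the endometrium, and all 4 groups had been transfected. The labels give no dose, no time after transfection and no sequence of either oligonucleotide. Each group had 1 library, so no value within a line has a replicate check, and nothing in the labels says how many cultures went into a library.

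Iron bound to transferrin enters cells through the transferrin receptor encoded by TFRC, is reduced in the endosome by the ferrireductase STEAP3 and leaves it through the divalent metal transporter encoded by SLC11A2. Iron that is not used is stored in ferritin, a shell of heavy chains (FTH1, which oxidise the iron) and light chains (FTL, which help form the mineral core), or leaves the cell through ferroportin, encoded by SLC40A1. The iron regulatory proteins, encoded by ACO1 and IREB2, bind hairpins called iron-responsive elements when iron is scarce. Such a hairpin in the 5′ untranslated region blocks translation of ferritin and ferroportin, and hairpins in the 3′ untranslated region protect the TFRC mRNA from decay. LCN2, also called neutrophil gelatinase-associated lipocalin, is secreted by neutrophils and inflamed epithelia and binds bacterial siderophores with their iron.

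The hairpins are shown because they separate the storage and export mRNAs from the uptake receptor by position. A script searched the untranslated regions of protein-coding transcripts in GENCODE release 29 (GRCh38) for a C, 5 bases, the loop CAGTGN and 5 further bases that pair with the first 5, G with T allowed. At least 1 match was found in 168 of 19669 genes (0.854%). FTH1, FTL and SLC40A1 each had 1 match in the 5′ untranslated region, and TFRC had 4 in the 3′ untranslated region. Each sequence has 25 bases of the coding strand, 5′ to 3′, with the loop in capitals.
FTH1, chr11:61967576-61967600, minus strand: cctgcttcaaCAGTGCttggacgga
FTL, chr19:48965337-48965361, plus strand: cttgcttcaaCAGTGTttggacgga
SLC40A1, chr2:189580663-189580687, minus strand: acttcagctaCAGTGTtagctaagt
TFRC 1, chr3:196050981-196051005, minus strand: ttatcggaagCAGTGCcttccataa
TFRC 2, chr3:196050577-196050601, minus strand: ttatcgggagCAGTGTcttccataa
TFRC 3, chr3:196050512-196050536, minus strand: gtatcggagaCAGTGAtctccatat
TFRC 4, chr3:196050465-196050489, minus strand: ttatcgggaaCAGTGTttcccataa
The windows of FTH1 and FTL have the same base at 23 of 25 positions. FTH1 shares 8 to 11 positions with the 4 windows of TFRC, which share 17 to 23 with each other. All these counts include the C and the CAGTG that the search required, which are the same in every window by construction. The counts are therefore no measure of likeness outside the pattern. SLC11A2, IREB2, ACO1, STEAP3 and LCN2 had no match, which says only that this pattern is not in their untranslated regions. SLC11A2 is counted further below among the mRNAs known to carry an iron-responsive element, so this pattern does not find every known one. A match is a description and not a tested site.

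Total counts were between 33575882 and 46220053 per library, and between 17016 and 17640 features had at least 1 count. All 6 epithelial markers (EPCAM, KRT8, KRT18, KRT19, CDH1 and CLDN4) had counts in each library, with summed levels of 1130 CPM (CPM being counts scaled to a common library total, here after TMM) with the mimic and 1287 CPM with the control in HEC-1-A, and of 3498 CPM with the mimic and 2030 CPM with the control in RL-95-2. KRT8 gave most of the RL-95-2 difference, at 1452 and 389 CPM, while EPCAM and CLDN4 had log2 ratios of -0.21 and -0.50. PAX8, a transcription factor of the Müllerian lineage, was at 351 and 331 CPM in HEC-1-A and at 221 and 294 CPM in RL-95-2, mimic first, while SOX17 of the same lineage had 0 counts in every library. The 8 blood and neutrophil markers summed to between 2 and 24 counts per library, with MPO and LTF at 0 in all 4, and the 5 erythroid markers to between 0 and 6 counts. Among 5 fibroblast markers, COL1A2 and DCN were at 0 in all 4 libraries, and the summed level was 7.72 and 3.85 CPM in HEC-1-A and 57.4 and 78.9 CPM in RL-95-2, mimic first, mostly from COL1A1. The 4 endothelial markers summed to 0.445 and 0.0902 CPM in HEC-1-A and 25.4 and 14.4 CPM in RL-95-2, mimic first, where CDH5 gave most of the sum.

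With the mimic, ferritin mRNA was lower in RL-95-2 and nearly level in HEC-1-A. FTH1 had 161272 counts in the RL-95-2 mimic library and 354140 in the control, or 3290 and 9091 CPM. FTL had 21946 counts with the mimic and 52133 with the control, or 448 and 1338 CPM. Both chains of the storage shell thus differed the same way, FTH1 by 2.76-fold (log2 ratio -1.47, 95% counting interval -1.47 to -1.46) and FTL by 2.99-fold (log2 ratio -1.58, interval -1.60 to -1.56). In HEC-1-A, FTH1 was at 10298 CPM with the mimic and 10901 CPM with the control, a log2 ratio of -0.08, and FTL was at 3818 and 3857 CPM, a log2 ratio of -0.01. In bulk RNA, fewer cells of a type and less RNA per cell cannot be told apart, and intervals here cover counting error only.

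**Figure D1:**
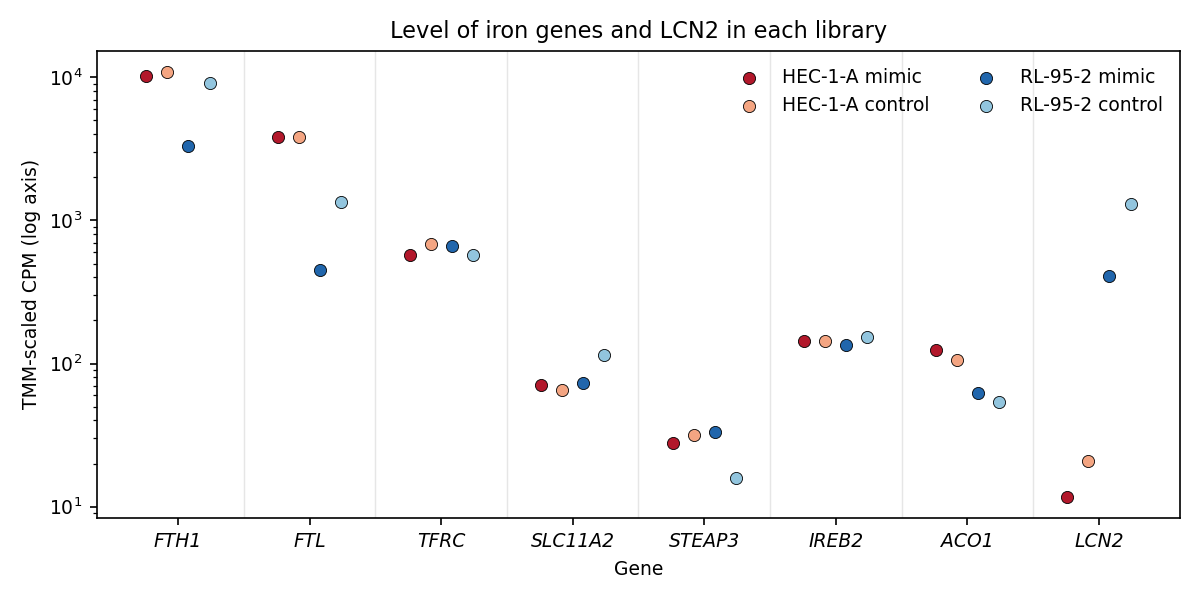
Level of 8 genes in each of the 4 libraries, as TMM-scaled CPM on a log axis, with 1 point per library. For FTH1 and FTL the RL-95-2 mimic library is the lowest of the 4, at 3290 and 448 CPM, and for LCN2 both RL-95-2 libraries lie far above both HEC-1-A libraries.

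Ferritin was among the most abundant mRNAs in these cells. By FPKM, a level per transcript length, FTH1 ranked 3 with the mimic and 2 with the control in HEC-1-A (7340 and 7913 FPKM), and 6 with the mimic and 1 with the control in RL-95-2 (3094 and 6432 FPKM). FTL ranked 65 in the RL-95-2 mimic library, at 481 FPKM, and 15 in its control, at 1313 FPKM. FTH1 and FTL together took 0.396% of all counts in the RL-95-2 mimic library against 1.02% in its control, and 1.38% against 1.46% in HEC-1-A. These shares use library totals and no TMM factor, and the RL-95-2 mimic library was the lowest of the 4 in them too.

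The counts and the FPKM values of FTH1 gave different sizes for this difference. On FPKM, the RL-95-2 mimic library was 2.08-fold lower for FTH1 and 2.73-fold lower for FTL. CPM of the library total divided by FPKM, which gives the length in kilobases behind an FPKM value, was 1.13 for FTH1 in the RL-95-2 mimic library, 1.38 in the RL-95-2 control, and 1.37 and 1.36 in the HEC-1-A mimic and control. For FTL the same quotient lay between 0.982 and 0.993 in the 4 libraries, so FTH1 in the RL-95-2 mimic library stood alone among the ferritin values.

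FTH1 also shares sequence with other features. It lies on chromosome 11 at 61959718 to 61967660 (GRCh38, minus strand), and BEST1, the gene of a chloride channel known from the retinal pigment epithelium, shares 1267 exonic bases with it on the other strand. BEST1 had 398 counts with the mimic and 12392 with the control in RL-95-2, and 19007 with the mimic and 10774 with the control in HEC-1-A. Relative to FTH1 these are 0.247% and 3.50% in RL-95-2, and 4.11% and 2.97% in HEC-1-A, mimic first. The strand setting of the counting is not given in the sources used here, so reads of FTH1 and BEST1 cannot be told apart. With the counts of both genes added, the log2 ratio was -1.51 in RL-95-2 and -0.07 in HEC-1-A, against -1.47 and -0.08 for FTH1 alone. GENCODE lists 25 pseudogenes named after FTH1 and 16 named after FTL, and 0 of the deposited features carry such a name. How reads that match both such copies and the ferritin genes were counted cannot be seen here, so the values of both ferritin genes are uncertain to that extent.

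**Figure D2:**
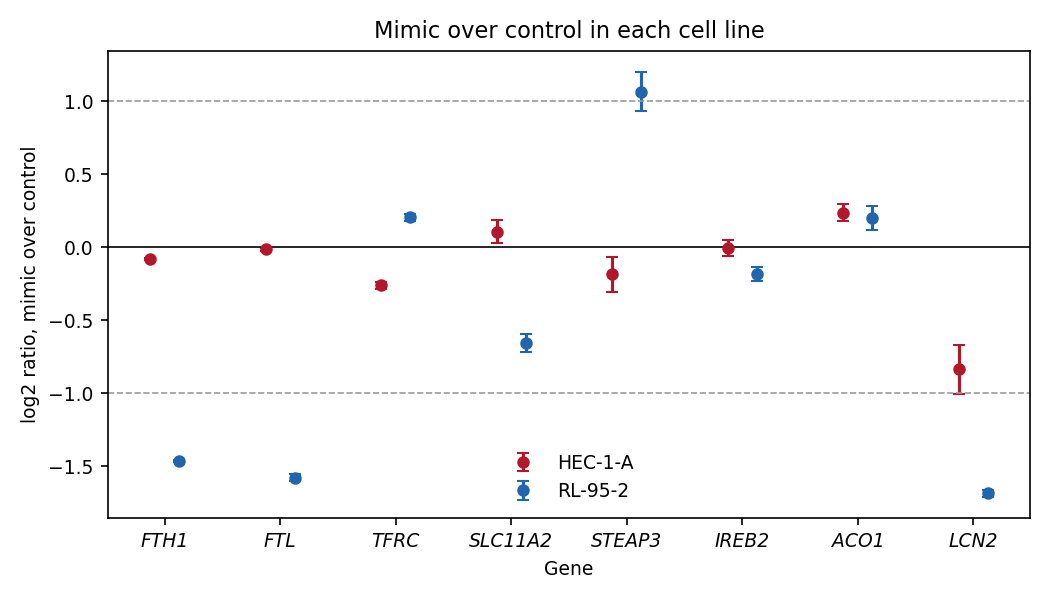
log2 ratio of mimic over control for 8 genes in HEC-1-A (left point of each pair) and RL-95-2 (right point), with exact 95% counting intervals from the 2 counts and dashed lines at a 2-fold difference. FTH1, FTL and LCN2 lie below the lower line in RL-95-2, STEAP3 lies above the upper line, and no HEC-1-A point lies past either line.

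The uptake genes did not move as a block. TFRC, the receptor for transferrin, had 32553 counts in the RL-95-2 mimic library and 22431 in its control, or 664 and 576 CPM (log2 ratio 0.21, interval 0.18 to 0.23). In HEC-1-A it had 25743 counts with the mimic and 22821 with the control, or 573 and 686 CPM (log2 ratio -0.26, interval -0.29 to -0.24). Its ratios thus had opposite signs in the 2 lines, at under 1.2-fold in each.

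STEAP3, the endosomal ferrireductase, differed more. It stood at 33.4 CPM in the RL-95-2 mimic library and 15.9 CPM in its control (1637 and 621 counts, 2.09-fold higher, log2 ratio 1.06, interval 0.93 to 1.20). In HEC-1-A the levels were 27.7 CPM with the mimic and 31.5 CPM with the control (log2 ratio -0.18, interval -0.30 to -0.06). The RL-95-2 control was the lowest of the 4 libraries for this gene, and the other 3 lay close together. The interval of the RL-95-2 ratio includes values under 2-fold, and on log2(FPKM + 1) the ratio was 0.97. An antisense gene, STEAP3-AS1, shares 500 exonic bases with STEAP3 on the other strand and is not among the deposited features.

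SLC11A2, the transporter also known as DMT1, went the other way. Its level was 73.4 CPM in the RL-95-2 mimic library and 116 CPM in the control (3598 and 4500 counts, 1.57-fold lower, log2 ratio -0.65, interval -0.72 to -0.59). In HEC-1-A it was at 70.8 CPM with the mimic and 65.7 CPM with the control (log2 ratio 0.11, interval 0.03 to 0.19). For this gene the RL-95-2 control stood above the other 3 libraries, which lay between 65.7 and 73.4 CPM.

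SLC40A1, the sole known iron exporter of human cells, was at or under the limit of detection in both lines. In HEC-1-A it had 0 counts with the mimic and 2 with the control, and 0 in both RL-95-2 libraries. A count of 0 allows a level of up to 0.0667 CPM in the HEC-1-A mimic library, 0.0612 CPM in the RL-95-2 mimic library and 0.0770 CPM in the RL-95-2 control. No ratio is given for it, and it is the single gene of the 9 that did not reach a mean of 1 CPM in either line.

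The mRNAs of the iron regulatory proteins differed little with the mimic. IREB2, which encodes iron regulatory protein 2, was at 134 CPM in the RL-95-2 mimic library and 152 CPM in its control (log2 ratio -0.18, interval -0.23 to -0.13), and at 143 CPM in both HEC-1-A libraries (log2 ratio -0.00, interval -0.06 to 0.05). ACO1, which encodes iron regulatory protein 1, the cytosolic aconitase, was at 61.9 and 53.8 CPM in RL-95-2 (log2 ratio 0.20, interval 0.12 to 0.28) and at 125 and 106 CPM in HEC-1-A (log2 ratio 0.24, interval 0.18 to 0.30), mimic first. ACO1 was the single measured gene of the set with a ratio above 0 in both lines, while IREB2 lay between 134 and 152 CPM in the 4 libraries. Their proteins are known to be controlled after translation, which mRNA levels do not show.

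LCN2 was lower with the mimic in both lines, from starting levels that were far apart. In RL-95-2 it had 20002 counts with the mimic and 51111 with the control, or 408 and 1312 CPM (3.22-fold lower, log2 ratio -1.68, interval -1.71 to -1.66). In HEC-1-A it had 528 counts with the mimic and 698 with the control, or 11.7 and 21.0 CPM (1.78-fold lower, log2 ratio -0.84, interval -1.004 to -0.673). By FPKM, LCN2 ranked 71 in the RL-95-2 mimic library (469 FPKM) and 13 in its control (1377 FPKM), where FTL was at 1313 FPKM, and 5130 and 3051 in the HEC-1-A mimic and control libraries. Among all genes measured in HEC-1-A, 0.416% had a lower ratio than LCN2, and in RL-95-2 it was 2.01%. For FTL and FTH1 in RL-95-2 the shares were 2.37% and 2.84%. LCN2 and the ferritin genes were picked with these ratios known, so the shares are a description. LCN2, FTH1 and FTL were the genes of the set with ratios below 0 in both lines along with IREB2, although those of FTL and IREB2 in HEC-1-A were within 0.02 of 0. The neutrophil markers MPO and LTF had no count, and no other blood marker passed 5 counts in HEC-1-A or 9 in RL-95-2.

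The bases before the LCN2 start site are shown because LCN2 is the member whose ratio was furthest below 0 in each line. The window holds the 250 bases before the RefSeq start (GRCh38.p14, chr9:128149203-128149452, plus strand), and capitals mark matches to an NF-kB type motif (GGG, 5 bases of any kind, then CC) and a C/EBP type motif, TTGCNNAA, searched on both strands.
LCN2: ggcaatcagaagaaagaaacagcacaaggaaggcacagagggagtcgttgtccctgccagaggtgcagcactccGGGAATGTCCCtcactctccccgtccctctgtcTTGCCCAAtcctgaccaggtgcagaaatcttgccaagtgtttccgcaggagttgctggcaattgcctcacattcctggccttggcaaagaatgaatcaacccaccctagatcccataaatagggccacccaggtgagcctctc
The NF-kB type letters begin at -176 and, on the other strand, at -175, so the 2 matches overlap, and the C/EBP type match begins at -143. Of 35116 promoter windows of the same length, 54.4% hold the NF-kB type letters and 9.05% the C/EBP type letters, so NF-kB type letters are common in such windows. Windows were found for 8 of the 9 genes, FTH1 being the other. LCN2 was the single one of these with the C/EBP type letters, FTL held neither motif, and none of the 8 held the core of the antioxidant response element, TGACNNNGC, which is in 10.9% of windows. A match is a description, and a missing match says only that these letters are not in the window.

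Set against all genes, the counts of members apart were as follows. A gene counted as apart at a difference of 2-fold or more, if its mean in the line reached 1 CPM. In RL-95-2, 3 of the 8 measured genes were at least 2-fold lower (FTH1, FTL and LCN2), where 6.44% of 13156 genes were, and 1 was at least 2-fold higher (STEAP3), where 4.8% of genes were. In either direction, 4 of 8 were apart, where 11.2% of genes were. In HEC-1-A, 0 of 8 were apart, where 1.11% of 12977 genes were, with 0.239% lower and 0.871% higher. Because the contrast was known when the genes were picked, nothing is read from these shares. The median log2 ratio over all genes was 0.01 in RL-95-2 and 0.02 in HEC-1-A. With scaling by the library total alone, the RL-95-2 median moved to 0.13, and the share higher among genes apart was 55.8% in place of 42.7%, while FTH1, FTL and LCN2 had log2 ratios of -1.34, -1.46 and -1.56.

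**Figure D3:**
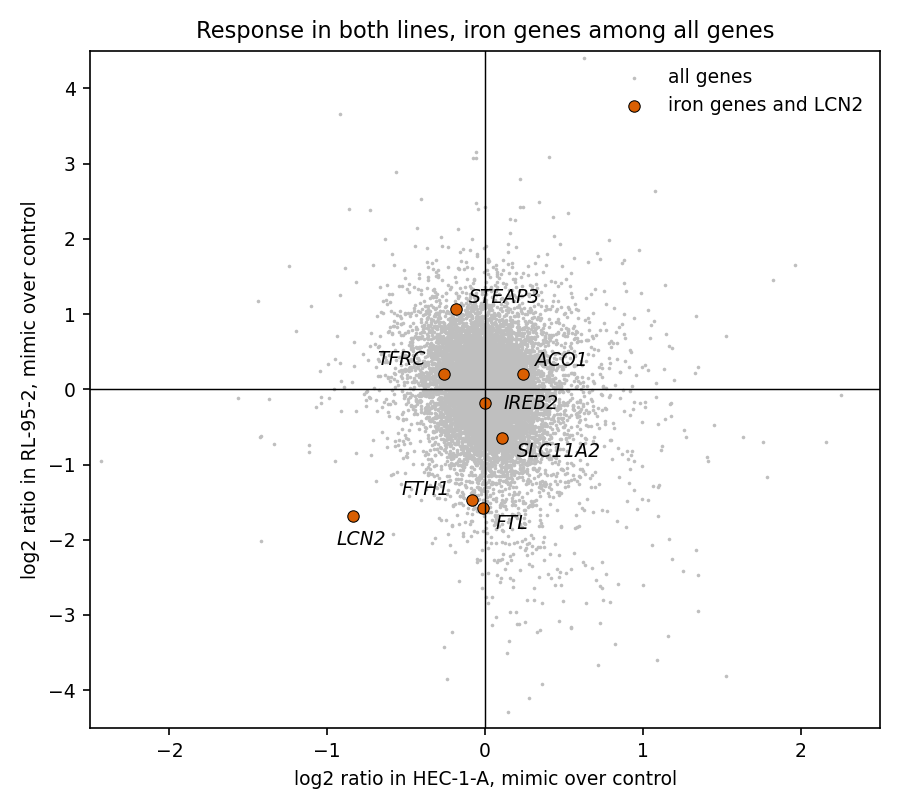
log2 ratio of mimic over control in HEC-1-A (x axis) and RL-95-2 (y axis) for 11911 genes that reached a mean of 1 CPM in each line, in grey, with 8 genes of the set in orange. Axes leave out 19 genes. LCN2 lies at -0.84 and -1.68, to the left of and below most genes, whereas FTH1 and FTL lie near 0 on the x axis and at -1.47 and -1.58 on the y axis.

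Over both lines, the edgeR quasi-likelihood test with the line as a block called 0 of 15957 features higher (0%) and 0 lower (0%) at an adjusted p under 0.05. This count describes the whole table, and no result on the set is drawn from it. At an unadjusted p under 0.05 it had 167 features. DESeq2 called 1 feature higher, SCHIP1-1, and 1 lower, PPAN-P2RY11, both named after their values were seen, and limma-voom called 0. The fit leaves 1 residual degree of freedom, and how the response differs between lines cannot be tested with 1 library per group.

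Ratios of genes within a library need no scaling between libraries. They recombine the values given above and add no separate evidence. The ratio of TFRC counts to the summed counts of FTH1 and FTL was 0.178 in the RL-95-2 mimic library (95% interval 0.176 to 0.180) and 0.0552 in its control (0.0545 to 0.0560), a 3.22-fold difference. In HEC-1-A it was 0.0406 with the mimic and 0.0465 with the control. The uptake receptor thus stood highest relative to ferritin in the RL-95-2 mimic library, above the other 3. The heavy to light chain ratio moved much less, at 7.35 in the RL-95-2 mimic library and 6.79 in its control, and at 2.70 and 2.83 in HEC-1-A. On FPKM, the heavy to light chain ratio was 6.43 and 4.90 in RL-95-2 and 1.95 and 2.03 in HEC-1-A, mimic first, so its difference in RL-95-2 was larger there. The ratio of IREB2 to ACO1 was 2.16 and 2.83 in RL-95-2 and 1.14 and 1.35 in HEC-1-A, mimic first, and was lower with the mimic in both lines.

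**Figure D4:**
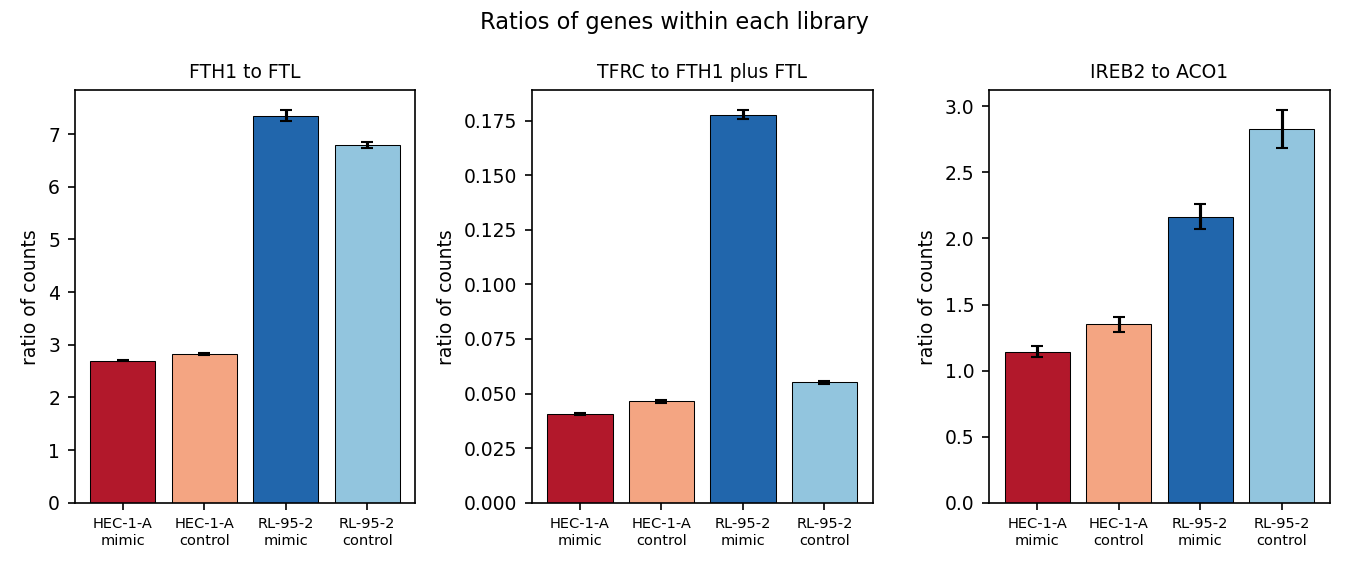
Ratios of counts within each library for FTH1 to FTL, TFRC to the sum of FTH1 and FTL, and IREB2 to ACO1, as bars from 0 with exact 95% binomial intervals. The TFRC to ferritin ratio of the RL-95-2 mimic library, 0.178, stands above the other 3, while both other ratios separate the lines more than the transfections.

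Between the lines, LCN2 and FTL were far apart in opposite directions. LCN2 had a mean of 16.4 CPM in HEC-1-A and 860 CPM in RL-95-2, and was 46.4-fold lower in HEC-1-A on the mean of log2 CPM, with both HEC-1-A libraries under both RL-95-2 libraries. FTL had a mean of 3838 CPM in HEC-1-A and 893 CPM in RL-95-2, 4.96-fold higher in HEC-1-A, again with no overlap. These were the 2 of 8 genes apart between lines by at least 2-fold with no overlap, where 17.7% of 13677 genes were lower and 16.2% higher in HEC-1-A. Just under that size were ACO1, with means of 116 CPM in HEC-1-A and 57.9 CPM in RL-95-2 (log2 ratio 0.998), and FTH1, with 10600.0 and 6191 CPM (log2 ratio 0.95). ACO1 was past 2-fold with RLE factors (1.02), on log2(FPKM + 1) (1.04) and on log2(FPKM + 0.1) (1.12), which would make 3 of 8.

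The size of these line differences was not the same in both pairs of libraries. For FTH1 the log2 ratio of HEC-1-A over RL-95-2 was 1.65 between the mimic libraries, and between the control libraries it was 0.26. For FTL the same ratios were 3.09 and 1.53, and for LCN2 -5.11 and -5.96, so all 3 genes had the same direction in either pair. STEAP3 had opposite directions, at -0.27 between mimic libraries and 0.98 between controls. TFRC and IREB2 overlapped between the lines, with log2 ratios of 0.02 and 0.00, and SLC11A2 was 1.35-fold lower in HEC-1-A with no overlap. For SLC11A2 the log2 ratio was -0.05 between the mimic libraries and -0.81 between the controls. Each line was represented by 2 libraries that differ in transfection, and no test was run on these levels.

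By length-normalised level the order of the set was the same in both HEC-1-A libraries down to TFRC, with FTH1 first, then FTL and then TFRC at 97.7 FPKM with the mimic and 120 FPKM with the control. In the RL-95-2 mimic library FTH1 was followed by FTL (481 FPKM) and LCN2 (469 FPKM), and in its control by LCN2 (1377 FPKM) and FTL (1313 FPKM), so that these neighbours stood in a different order in each. Below TFRC, at 123 and 97.2 FPKM in RL-95-2, SLC11A2, IREB2, ACO1, STEAP3 and the LCN2 of HEC-1-A lay between 3.50 and 25.6 FPKM in the 4 libraries. FPKM values have no replicate spread here, so the order of close neighbours was not tested.

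Other iron genes were followed in lists grouped by role, which were chosen with earlier results of these data known. Over all genes, 11.2% in RL-95-2 and 1.11% in HEC-1-A were apart in either direction. Of 6 storage genes, 4 were measured and 0 were apart in either line (median log2 ratio 0.12 in RL-95-2 and -0.08 in HEC-1-A). Among them NCOA4, the receptor that delivers ferritin to lysosomes for breakdown, had log2 ratios of 0.29 in RL-95-2 and 0.16 in HEC-1-A, and PCBP2, an iron chaperone, had -0.35 and -0.12. Of 12 uptake and carrier genes, 5 were measured in RL-95-2 and 4 in HEC-1-A, with 0 apart. SLC39A8, a zinc transporter that also carries iron, had 0.76 in RL-95-2 and 0.11 in HEC-1-A, and SLC22A17, a reported LCN2 receptor, was at 18.0 CPM with the mimic and 14.3 CPM with the control in HEC-1-A and under 0.5 CPM in RL-95-2. HFE, the hemochromatosis protein that binds the transferrin receptor, was at 29.8 and 23.3 CPM in RL-95-2, mimic first, and at 2 and 0 counts in HEC-1-A.

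Of 9 export and regulation genes, 4 were measured in RL-95-2, all with ratios below 0. CP, the ferroxidase ceruloplasmin, was the single one apart, on the lower side, where 6.44% of all genes were. It was at 0.551 CPM with the mimic and 1.64 CPM with the control (27 and 64 counts). The interval of its log2 ratio, -2.28 to -0.91, includes values under 2-fold. FBXL5, the iron-sensing ubiquitin ligase subunit that degrades iron regulatory proteins, had log2 ratios of -0.34 in RL-95-2 and -0.01 in HEC-1-A, and NEO1, a hemojuvelin receptor, had -0.61 and 0.10. HAMP, the gene of hepcidin, had 0 counts in every library.

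All 12 genes of mitochondrial iron and iron-sulfur assembly were measured. FDXR, the reductase that feeds electrons to this pathway, was the single one apart, on the higher side in RL-95-2, where 4.8% of all genes were. It was at 24.0 CPM in the RL-95-2 mimic library and 11.4 CPM in its control (log2 ratio 1.06). In HEC-1-A it was at 12.5 and 13.1 CPM, mimic first. The interval of its RL-95-2 ratio, 0.91 to 1.23, includes values under 2-fold. HSCB, a cochaperone of the scaffold, had log2 ratios of -0.41 in RL-95-2 and -0.15 in HEC-1-A. The list's median was 0.25 in RL-95-2 and 0.02 in HEC-1-A.

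Of 15 heme genes measured in RL-95-2, 3 were apart with higher values, where 4.8% of all genes were, and 1 with a lower value, where 6.44% were. ALAD, an early enzyme of heme synthesis, was at 18.2 CPM with the mimic and 8.93 CPM with the control, and CPOX, a later one, at 79.1 and 39.3 CPM. FLVCR2, a transporter of the heme exporter family, had a log2 ratio of 1.07 at 4.24 and 2.00 CPM. These 3 lay close to the 2-fold cutoff, and their counting intervals include values under it. In log2 the intervals were 0.84 to 1.21 for ALAD, 0.92 to 1.09 for CPOX and 0.70 to 1.48 for FLVCR2. HMOX1, which breaks heme down and releases its iron, was the lower one, at 29.9 CPM with the mimic and 166 CPM with the control (log2 ratio -2.47). In HEC-1-A, HMOX1 had the opposite sign, at 40.2 and 15.8 CPM (log2 ratio 1.35). It was the single one of 14 apart there, where 0.871% of all genes were at least 2-fold higher. BLVRB, a biliverdin reductase, had -0.74 in RL-95-2 and 0.21 in HEC-1-A. Neither synthesis nor breakdown genes shared 1 direction in RL-95-2, where the breakdown gene HMOX2 had 0.76 and the synthesis gene PPOX had -0.62.

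Of 10 mRNAs known to carry an iron-responsive element, 8 were measured, and 3 were at least 2-fold lower in RL-95-2, where 6.44% of all genes were, and 0 in HEC-1-A, where 0.239% were. Of the lower ones, FTH1 and FTL belong to the set picked with these values known, and the other was CDC42BPA, a kinase gene. The log2 ratios of CDC42BPA were -1.06 in RL-95-2, with an interval of -1.13 to -0.99, and -0.01 in HEC-1-A. EPAS1, the hypoxia-inducible factor HIF-2 alpha, had -0.12 in RL-95-2 and -0.01 in HEC-1-A. These mRNAs thus did not share 1 direction in RL-95-2, where 2 of 8 were above 0 and 6 below.

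**Figure D5:**
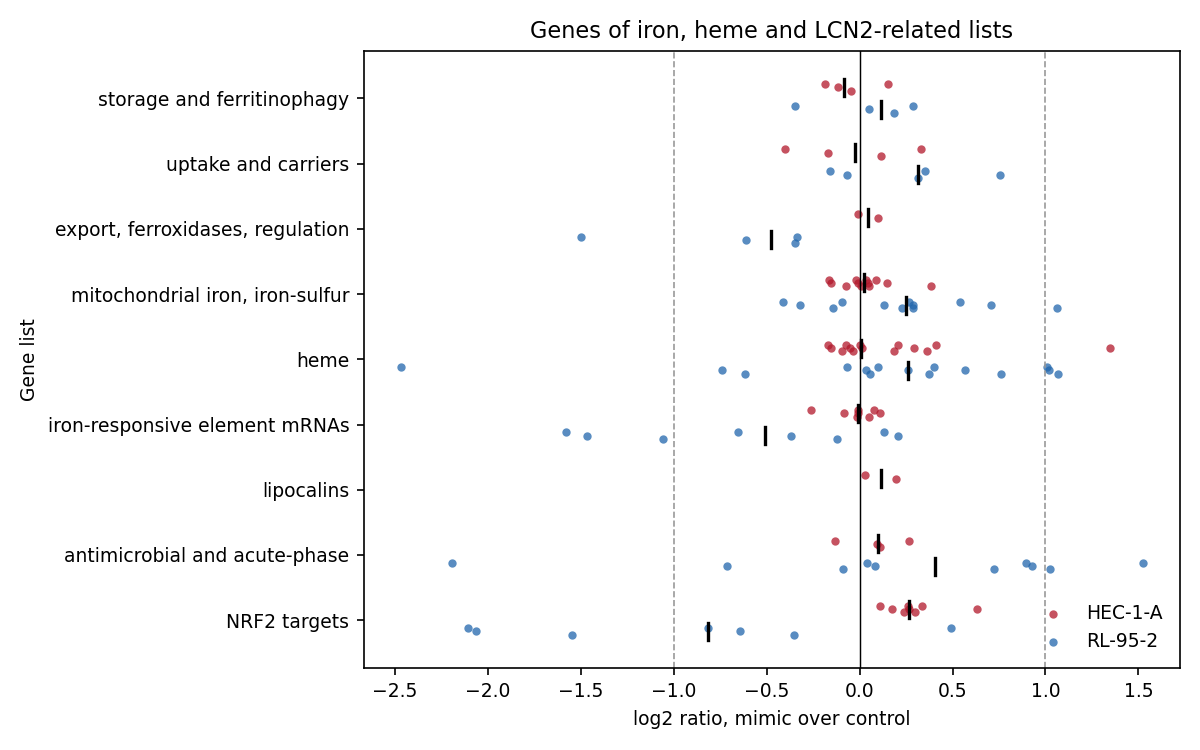
log2 ratio of mimic over control (x axis) for measured genes of each list, with HEC-1-A above RL-95-2 in each row, a black bar at each median and dashed lines at 2-fold. NRF2 targets lie above 0 in HEC-1-A, with a median of 0.26, and mostly below 0 in RL-95-2, with a median of -0.82.

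Ferritin genes are known targets of NRF2, the transcription factor of the antioxidant response. Of 8 other NRF2 targets, 7 were measured in RL-95-2, and 3 were at least 2-fold lower with the mimic, where 6.44% of all genes were. They were SLC7A11, the cystine transporter (110 CPM with the mimic and 477 CPM with the control), TXNRD1, a thioredoxin reductase (205 and 854 CPM), and SRXN1, a sulfiredoxin (115 and 335 CPM). In HEC-1-A all 8 had ratios above 0, with a median of 0.26 and GCLM, a subunit of glutathione synthesis, highest at 0.63, while FTH1 and FTL had -0.08 and -0.01.

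Of 14 genes known to accompany LCN2 in inflamed epithelium, 10 were measured in RL-95-2. Of these, 7 had ratios above 0 and 3 below, with 2 apart on the higher side, where 4.8% of all genes were, and 1 on the lower, where 6.44% were. S100A8, a subunit of the antimicrobial protein calprotectin, was at 14.3 CPM with the mimic and 4.93 CPM with the control, and its partner S100A9 was at 157 and 82.7 CPM (log2 ratio 0.93). PI3, the protease inhibitor elafin, was at 2.14 and 1.03 CPM (log2 ratio 1.03, interval 0.52 to 1.62). The lower one was the chemokine gene CCL20, at 1.41 and 6.62 CPM, and the complement gene CFB was below 0 as well, at 5.90 and 9.70 CPM (log2 ratio -0.71). NFKBIZ, a cofactor of NF-kB known to induce LCN2, had log2 ratios of 0.08 in RL-95-2 and 0.09 in HEC-1-A, and the complement gene C3 had 0.04 and 0.11. In HEC-1-A, 4 were measured and 0 were apart, and S100A8 and S100A9 had 0 counts. Of 11 other lipocalins, 0 were measured in RL-95-2 and 2 in HEC-1-A, where AMBP was at 21.4 CPM with the mimic and 21.0 CPM with the control.

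The genes with patterns most like those of the set were found by the distance between log2 CPM values over the 4 libraries, each centred on its gene's mean, among 10936 named genes whose mean reached 5 CPM. This is a description over 4 libraries. Nearest to FTH1 were FAM129A, at a distance of 0.03, and CEBPG, a transcription factor of the C/EBP family, at 0.10, with log2 ratios of -1.47 and -1.56 in RL-95-2 and -0.05 and -0.07 in HEC-1-A. Nearest to FTL were SLAIN1 and IRF5, which reached the 5 CPM mean through HEC-1-A. In RL-95-2, SLAIN1 was at 1.59 and 4.85 CPM and IRF5 at 1.22 and 3.21 CPM, mimic first. Their log2 ratios in HEC-1-A were 0.21 and 0.10, and their distances from FTL were 0.19 and 0.21. LCN2 had no such close match, and its nearest gene, BTG3, lay at 0.52, with log2 ratios of -0.96 in RL-95-2 and -0.95 in HEC-1-A. BTG3 was at 39.0 and 75.6 CPM in RL-95-2, mimic first, and reached the 5 CPM mean through that line. In HEC-1-A it was at 0.801 and 1.59 CPM, so that ratio rests on a low level. LHX6, STRA6, RAB38 and ZNF790 followed at 0.72 to 0.77, all under 1 CPM in both HEC-1-A libraries. TFRC was nearest to ZNF227 and PIGQ, SLC11A2 to KLHL2 and PCGF5, STEAP3 to SRSF1 and CCNE1, IREB2 to ELAC1 and CBY1, and ACO1 to CPPED1 and PSMD8, at distances between 0.02 and 0.09.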

How the data were processed

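RNA sequencing of poly(A) RNA was done in 4 libraries, 1 for each line and transfection, as the labels give them. The deposited tables hold unnormalised read counts and, separately, FPKM values made by the authors. CASAVA, HISAT2 and GRCh38 (hg38) were used, per the submitters' processing notes. For the counter, the annotation and strandedness, the sources used here name nothing. Of 22494 features, 2765 carry an assembled-locus name and 27 a symbol turned into a date. They stayed in totals and tests and were not named.

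Counts were scaled by TMM (edgeR 4.0.16, R 4.3.3). Log2 ratios used a prior count of 2, with exact 95% intervals from the 2 counts, and floors were 3 counts per library. Both cover counting error only. The fit over both lines was edgeR's quasi-likelihood test with Benjamini-Hochberg adjustment over all features. The mimic and control libraries of a line were tied by the cell line in their labels. Nothing in the labels says the libraries are separate cultures. The spread behind the p-values of this fit is how far the response differs between the lines, which may in part be technical. No group has a repeat in it. The procedure was tested on simulated data. DESeq2 1.42.0, limma 3.58.1, RLE factors, library totals, log2(FPKM + 1), log2(FPKM + 0.1), other filters, thinning and omission of a line were alternatives. Adding BEST1 to FTH1 was chosen after seeing the data. Members and lists were chosen with earlier results of these data known. Named beside the members are the highest and lowest genes of each list, up to 2 a direction, and the genes nearest in pattern. Others were picked after their values were seen. Some genes of the lists are not reported here by name.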

Additional observations from a re-analysis of the deposited data

Results flagged for a closer look

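The mimic-over-control ratios of 3 genes had opposite signs in the lines, with counting intervals that leave out 0 in both. The log2 ratios were 0.21 in RL-95-2 and -0.26 in HEC-1-A for TFRC, -0.65 and 0.11 for SLC11A2, and 1.06 and -0.18 for STEAP3. Each rests on 1 library per group, and the difference between the lines was not tested.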

How the results depend on the processing

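Under the 7 alternatives run on the log2 ratios of the 8 measured genes within a line (6 for each gene, and BEST1 added to FTH1), all 49 values in each line kept their sign. Their sizes moved more than the counting intervals allow for several genes. On log2(FPKM + 1) in RL-95-2, FTH1 had -1.06, against an interval of -1.47 to -1.46. IREB2 had -0.05 there, against -0.23 to -0.13. Other values stayed inside their intervals. On log2(FPKM + 1), 0 genes of the set were at least 2-fold higher in RL-95-2 in place of 1, as STEAP3 came to 0.97. Counts over all genes moved with the measure and the minimum. With log2(FPKM + 1), genes at least 2-fold higher and lower were 352 and 375 in RL-95-2 and 13 and 13 in HEC-1-A, and 1399 genes were higher in HEC-1-A than in RL-95-2. With a minimum of 5 CPM, 344 were higher in RL-95-2, and 18 were higher and 11 lower in HEC-1-A. With no minimum these counts were 1714 and 1807 in RL-95-2 and 1163 and 703 in HEC-1-A. On log2(FPKM + 1), 48.4% of the genes apart in RL-95-2 were higher, and on log2(FPKM + 0.1) it was 57.3%, against 42.7%. In HEC-1-A the share on log2(FPKM + 1) was 50.0%, against 78.5%. The cause was not tested. With 1 pair of libraries alone, between 2165 and 2510 genes were higher and between 2522 and 2717 lower in HEC-1-A than in RL-95-2. On FPKM, the log2 change of a within-library ratio was 0.39 in place of 0.11 for FTH1 to FTL in RL-95-2, 1.46 in place of 1.69 for TFRC to ferritin in RL-95-2, and -0.17 in place of -0.24 for IREB2 to ACO1 in HEC-1-A. Over both lines, DESeq2 called 1 feature higher and 1 lower, and without the block for the cell line edgeR called 0 in either direction. Leaving out a line leaves 1 library against 1, the values given within each line. SLC40A1 was not measurable at this depth.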
